A study of Caenorhabditis elegans with 4 samples.

Results

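Chromosome IV carried 107 of the 474 AHA-1 binding regions in the authors' combined list, and 4166 of 23943 peaks of replicate 1 and 3436 of 20827 peaks of replicate 2. These members were taken by position alone, as every row of the 3 deposited peak lists that lies on IV. Binding was mapped by ChIP-seq, in which DNA bound by a protein is precipitated from chromatin and sequenced, in fed first-stage (L1) larvae of Caenorhabditis elegans, grown at 20 °C and crosslinked with 2% formaldehyde. The worms were hermaphrodites of strain OP124, unc-119(ed3) mutants with the transgene wgIs124, made by bombardment and outcrossed 3 times. The transgene encodes AHA-1 fused to TY1, EGFP and FLAG tags and brings a rescuing copy of unc-119, so all libraries share the unc-119 mutation, its rescue and the tagged protein. The series held 2 ChIP libraries made with anti-GFP antibody and 2 input libraries, all of the same strain and stage; no input data were analysed here. GFP antibody pulls down the tagged protein, so the lists describe the transgene's product, averaged over whole larvae, and say nothing on which cells bound a site.

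AHA-1 is the worm counterpart of mammalian ARNT and binds DNA as a dimer with other factors of its family, which share a basic helix-loop-helix and a PAS domain. Its partners include HIF-1, the oxygen-regulated factor of the hypoxia response, and AHR-1, the worm counterpart of the aryl hydrocarbon receptor, which acts in the development of certain neurons. Worm autosomes have gene-dense centres with little recombination and arms that recombine more and hold more repeats, and chromosome IV is also known for large clusters of piRNA genes. No gene or sequence is named for a site below, since positions are 1-based in WormBase WS220 and no annotation or genome sequence of that build was used.

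The lists differ in kind. Replicate lists give each peak a score on a scale that is not stated, with a ceiling of 3.39 in replicate 1 and 3.01 in replicate 2, which 1238 and 512 peaks reached in the whole lists. The authors also numbered the peaks, the lowest numbers being the peaks at the ceiling. Among these only the number gives an order, and what it ranks by is not stated. Below the ceiling the number did not follow the score: in replicate 2, number 515 had 2.54 and number 897 had 2.78. The combined list gives each region a q-value from another caller. The libraries behind it are not stated; if they are the same ChIP libraries, overlap with the replicate lists is built in. No list holds read counts. Depth is therefore unknown, a site without a peak may have had too few reads to be called, and the 95% Clopper-Pearson intervals below cover the counting of peaks only. Chromosomes II, III, V and X served as background. Regions of one chromosome are not replicates of a condition, so differences between chromosomes are described and were not tested.

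Chromosome IV held more combined regions than any of the 4 background chromosomes, but it was not the densest. Its 107 regions made up 22.6% of the nuclear list and 23.8% of the regions on II to X, against 17.5% and 20.5% of the corresponding length. The density was 6.12 regions per Mb of its 17.5 Mb, below III (6.97) and above II (5.43), X (4.52) and V (4.02). Chromosome I, which is outside the background, held 24 regions in the list as used here, and this low count raises the nuclear share of IV. The surplus was not seen in the replicate lists: IV held 20.6% of the replicate 1 peaks on these 5 chromosomes and 19.4% of those of replicate 2. At the ceiling score its share on the 5 chromosomes was 20.3% in replicate 1, level with its share of length, and 17.7% in replicate 2, below it. Over all nuclear chromosomes these shares were 16.7% and 14.9%. Together the regions covered 41.1 kb, or 0.235% of the chromosome.

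The regions on IV were of ordinary width and weaker by q-value than most. The median width was 335 bp (interquartile range 286 to 412), within the 320 to 398 bp of the background chromosomes. The narrowest region was 185 bp and the widest 1646 bp. At a q-value of 0.001 or less stood 56 of the 107 regions, 52.3% (42.5 to 62.1), where the background was 60.1% and the single chromosomes ran from 51.2% on V to 68.8% on X. The median q-value was 8.88e-04 on IV, the highest of the 5 chromosomes. The lowest q-value on IV, 6.52e-22, was also the least extreme chromosome minimum, since the others ran from 3.70e-45 on X to 2.09e-142 on V.

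**Figure D1:**
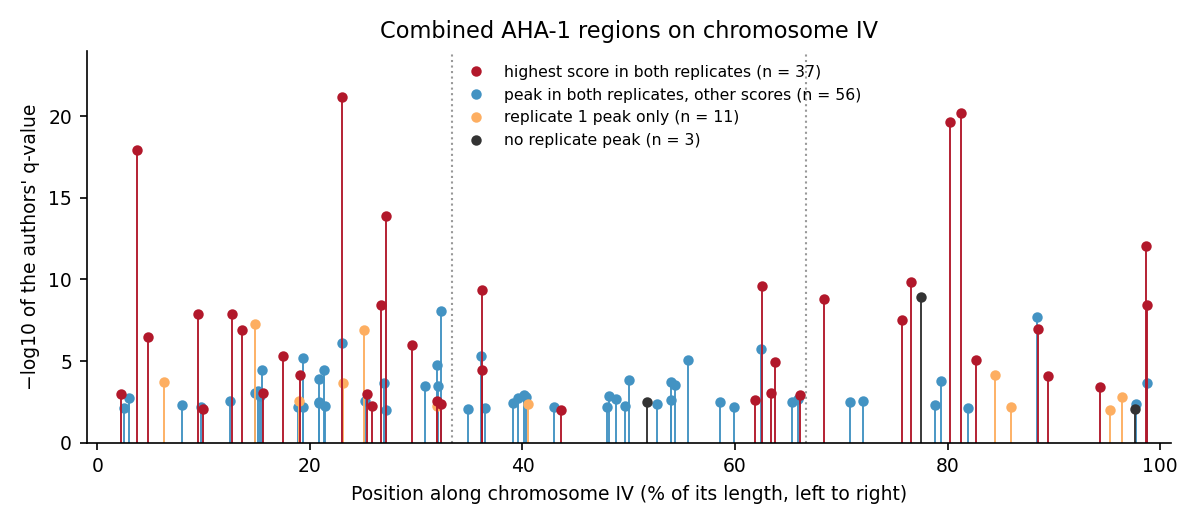
Each stem is 1 of the 107 combined regions on chromosome IV, placed by its position as a percentage of chromosome length (x axis) and by −log10 of the authors' q-value (y axis), with colours for the replicate peaks it overlaps and dotted lines between the 3 equal parts. The highest stems, 21.2 and 20.2, stand in the left and the right part, and no stem in the centre passes 9.58.

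The strongest sites on IV were shared by both replicates. Of the 20 regions with the lowest q-values, all at or below 1.01e-07, 16 overlapped a ceiling-score peak in both replicates. Their median width was 406 bp, above the 335 bp of all regions on IV, and 16 of the 20 were narrower than 500 bp, against 93 of all 107. The region at IV:4025831-4026316 (486 bp) had the lowest q-value, 6.52e-22, and overlapped peak number 9 of replicate 1 and number 10 of replicate 2. The next, IV:14219612-14220036 (425 bp, q = 6.24e-21), overlapped numbers 16 and 12. Both replicates thus placed these 2 sites near the head of their lists. IV:654699-655103 (405 bp, q = 1.27e-18) overlapped numbers 11 and 8.

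At some of the strong sites the replicates ordered the peaks less alike, although both gave the ceiling score. IV:4749877-4750241 (365 bp, q = 1.37e-14) had number 12 in replicate 1 and 134 in replicate 2. IV:17249688-17250038 (351 bp, q = 8.57e-13), near the right end of the chromosome, had 13 and 108. IV:13395153-13395580 (428 bp, q = 1.47e-10) had 50 and 53, a near match.

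Only 1 region on IV reached 1500 bp. It was IV:14032571-14034216 (1646 bp, q = 2.38e-20), next by q-value after the first 2 but with peak numbers of only 528 and 90, and it overlapped 2 peaks of replicate 1 and 3 of replicate 2. The next widest, IV:10935157-10936354 (1198 bp, q = 2.63e-10), overlapped 2 peaks of each replicate, with lowest numbers 138 and 187. Wider regions tended to have lower q-values: over all 107 regions Spearman's rho between q-value and width was -0.54, a description over regions called in 1 list. The median width fell from 415 bp at q-values of 1e-10 or less to 304 bp above 0.001. It was -0.39 to -0.57 on the background chromosomes.

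**Figure D2:**
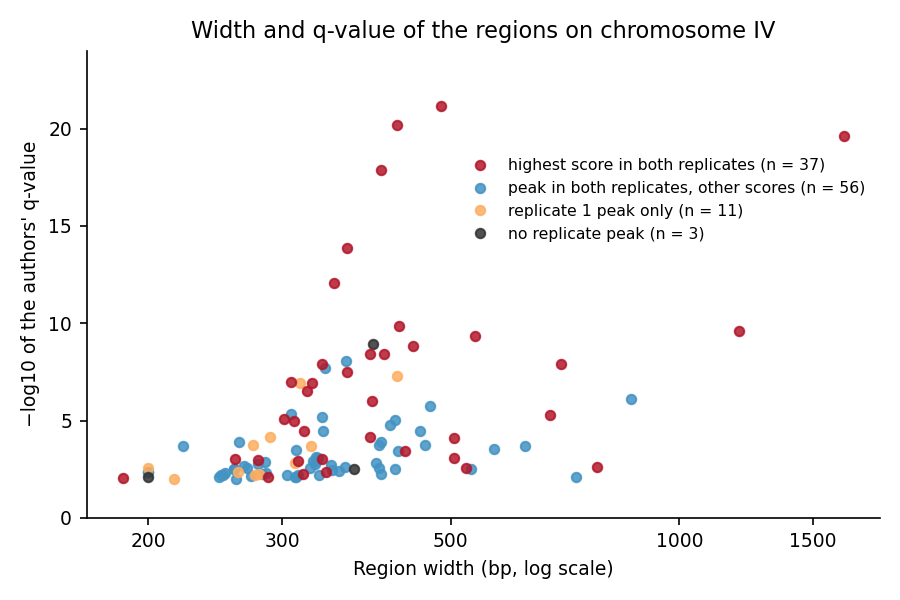
Each point is 1 combined region on chromosome IV, with its width in bp on a log scale (x axis) and −log10 of the authors' q-value (y axis), coloured by replicate support. The region of 1646 bp stands alone at the right, and the 20 strongest regions have a median width of 406 bp, against 335 bp over all 107.

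The narrowest replicate peaks lay in combined regions of low q-value. Nearly every replicate 1 peak had the same width, 410 bp, and nearly every replicate 2 peak 484 bp. On IV, 6 peaks of replicate 1 were narrower, 104 to 194 bp, as were 3 of replicate 2, 144 to 195 bp. All 9 had the ceiling score, and all 9 lay in a combined region among the first 14 on IV by q-value. They also had low peak numbers, 9 to 19 in replicate 1 and 8 to 12 in replicate 2. Of all ceiling-score peaks on IV, 46.8% in replicate 1 and 60.3% in replicate 2 lay in a combined region. This comparison does not separate width from peak number. The 3 narrow peaks of replicate 2 lay in the same regions as 3 of replicate 1, at IV:4025831-4026316, IV:14219612-14220036 and IV:654699-655103. On the background chromosomes 11 replicate 1 peaks and 5 replicate 2 peaks were narrower than the common width, and each of them also lay in a combined region.

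Other regions among the 20 followed the same pattern of shared ceiling scores. IV:6336623-6337161 (q = 4.32e-10) had numbers 112 and 56, IV:11956295-11956740 (q = 1.51e-09) had 71 and 210, and IV:17278334-17278725 (q = 3.67e-09) had 114 and 63. IV:4660331-4660738 (q = 3.79e-09) had 119 and 55. IV:1659080-1659418 and IV:2219131-2219829, both with q = 1.28e-08, had 120 and 21, and 39 and 403. IV:13240442-13240806 (q = 3.20e-08) had 204 and 37, and IV:15472400-15472707 (q = 1.01e-07) had 260 and 273. In each of these 8 regions both replicates had a peak at the ceiling.

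The 4 exceptions among the 20 rested on replicate 1 or on no replicate peak. IV:5655958-5656321 (q = 8.43e-09) overlapped number 19 of replicate 1, but its replicate 2 peak had number 2098 and a score of 1.99. IV:15471419-15471760 (q = 2.02e-08) had number 79, and number 515 with a score of 2.54 in replicate 2, below that list's ceiling of 3.01. IV:2601966-2602390 (q = 5.35e-08) had number 64 in replicate 1 and no replicate 2 peak. IV:13549272-13549666 (q = 1.22e-09) overlapped no peak of either list.

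Support by both replicates was lower on IV than on each background chromosome, with overlapping intervals. A peak in both lists lay under 93 of the 107 regions, 86.9% (79.0 to 92.7), where the background was 92.1% (88.8 to 94.7) and the single chromosomes ran from 90.5% to 95.2%. Every one of the 14 others lacked a replicate 2 peak: 11 had a replicate 1 peak alone and 3 had none. This was not particular to IV. A replicate 2 peak alone was found at 1 region each on II, III and V and at 0 on X, and a replicate 1 peak alone at 2 to 7 regions. Windows of the same widths as these regions, placed at every possible position on IV, touched both lists at 4.07% of positions. On the background chromosomes, windows of the widths of their own regions did so at 4.15% to 5.43% of positions. With a reciprocal overlap of at least 50% the share of regions with both peaks was 70.1%.

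Replicate 2 was where the support on IV fell short at the ceiling score. A ceiling-score peak of replicate 1 lay under 89 regions, 83.2% (74.7 to 89.7), against 87.5% (83.5 to 90.8) on the background chromosomes. A ceiling-score peak of replicate 2 lay under 40 regions, 37.4% (28.2 to 47.3), against 57.7% (52.3 to 63.0). Both together were met at 37 regions on IV, 34.6% (25.6 to 44.4), against a background of 53.6% (48.2 to 59.0). Chromosome V was alike, with 35.7%, while II, III and X had 53.0%, 61.5% and 63.8%. The 37 regions had a median q-value of 9.77e-07, and the 52 with a replicate 1 ceiling peak only had a median of 1.53e-03. Ceiling scores were also rarer in replicate 2 as such: 2.12% of its peaks on IV had one, and 4.87% of the replicate 1 peaks. The background chromosomes showed the same contrast, with 2.38% and 4.97%, so it was not particular to IV. Replicate 2 peaks of any score were sparser on IV, 196 per Mb, than on the background chromosomes, 201 to 218 per Mb.

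The 3 regions without a replicate peak had little else in common. Besides IV:13549272-13549666 they were IV:9046979-9047351 (373 bp, q = 3.20e-03) and IV:17084414-17084613 (200 bp, q = 8.44e-03). Only the first stood at a low q-value.

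Over all peaks, about 1 in 4 replicate 1 peaks on IV was found again in replicate 2. An overlap of 1 bp or more counted as reproduced. It was met by 1029 of 4166 replicate 1 peaks, 24.7% (23.4 to 26.0). The background was 24.5% (23.9 to 25.2), so by this count IV stood at the background. Windows of 410 bp placed at every position of IV touched a replicate 2 peak at 15.8% of positions, against 16.2% to 17.4% on the background chromosomes. Counted from replicate 2, 1039 of 3436 peaks overlapped a replicate 1 peak, 30.2% (28.7 to 31.8), and 19.3% of window positions on IV did. The background by this count was lower, 27.8% (27.1 to 28.6), from 25.4% on V to 31.3% on III. With a reciprocal overlap of at least 50% the replicate 1 share on IV was 14.8%, and with midpoints within 200 bp it was 14.6%. The window shares hold for an overlap of 1 bp or more. None was computed for these stricter rules, so these 2 values cannot be set against 15.8%.

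Reproduction was most frequent at the ceiling score. Of the 203 replicate 1 peaks on IV at the ceiling, 135 were reproduced, 66.5% (59.6 to 73.0). The share was 32.7% (27.7 to 38.0) from a score of 2 to below the ceiling, 22.5% from 1 to below 2, 21.6% from 0.5 to below 1 and 21.2% (19.4 to 23.2) below 0.5. In replicate 2, 59 of 73 ceiling peaks were reproduced, 80.8% (69.9 to 89.1), then 45.6%, 31.0%, 26.1% and 27.4% in the same classes. Below a score of 2 the replicate 1 shares ran from 21.2% to 22.5% and changed little with the score, above the window share of 15.8%. The background chromosomes gave 68.6% and 86.5% at the ceiling.

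**Figure D3:**
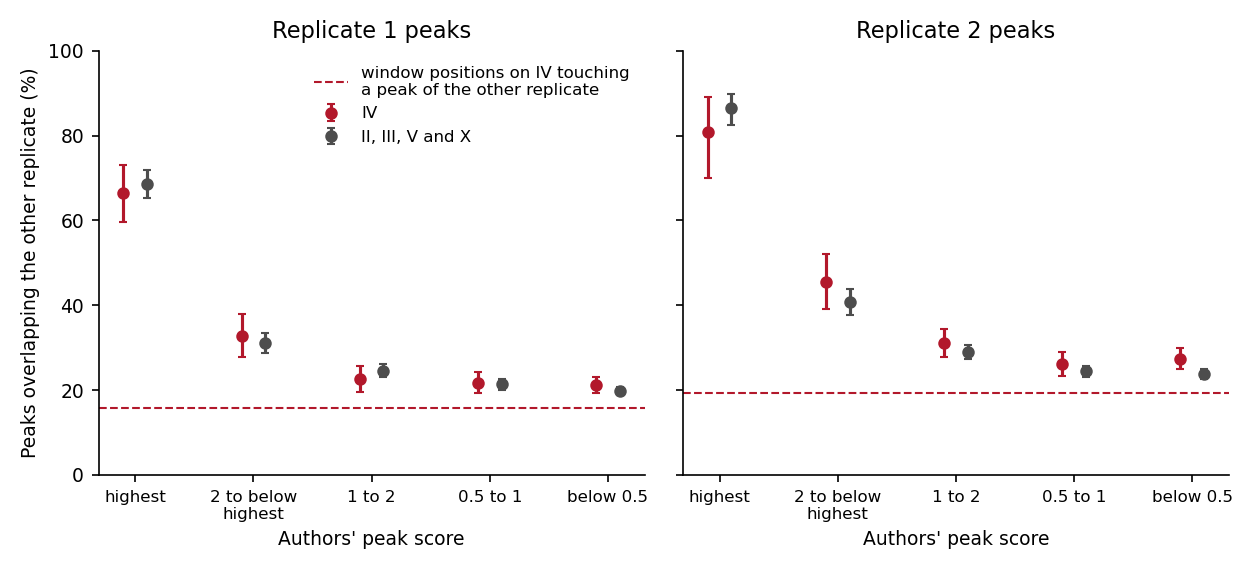
Points give the share of peaks that overlap a peak of the other replicate by at least 1 bp (y axis, %) in 5 classes of the authors' score (x axis), for chromosome IV and for II, III, V and X together, with 95% Clopper-Pearson intervals; the dashed line is the share of window positions on IV that touch a peak of the other replicate. The share falls from 66.5% to 21.2% in replicate 1 and from 80.8% to 27.4% in replicate 2, toward the dashed lines at 15.8% and 19.3%.

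On IV, replicate 1 ceiling peaks that overlapped a ceiling peak of replicate 2 mostly lay close to a replicate 2 peak. There were 46 replicate 1 peaks of this kind, which overlapped 45 ceiling peaks of replicate 2. With 1 replicate 2 ceiling peak taken for each, only 42 were distinct, since some neighbouring replicate 1 peaks lay on the same one. The 46, called sites below, are thus peaks and not all separate places, and their shares and intervals count some places more than once. Distance was taken from each midpoint to the nearest midpoint of an overlapping replicate 2 peak of any score, which was not always the ceiling peak. Its median over the 46 was 24 bp (quartiles 9 and 51), and 34 of the 46 were within 50 bp. On the background chromosomes the median was 31 to 39 bp. Over all 1029 reproduced peaks on IV the median distance was 157 bp (55 to 291). Such sites were fewer per length on IV, 2.63 per Mb, than on III (5.08), II (3.60) and X (3.44), and more than on V (1.72).

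Most of these 46 shared ceiling sites, but not all, had a combined region. A region covered 41 of them, 89.1% (76.4 to 96.4), against a background of 86.5% (81.3 to 90.7). Of all 1029 reproduced peaks on IV a region covered 111, or 10.8%. The 5 without one were IV:13297740-13298149 (numbers 717 and 349), IV:11179138-11179547 (905 and 244), IV:8782150-8782559 (849 and 374), IV:4028127-4028536 (804 and 436) and IV:10734499-10734908 (911 and 340). None of the 5 had a number below 717 in replicate 1 or below 244 in replicate 2. IV:4028127-4028536 began 1810 bp beyond the strongest region of the chromosome, and the others were at least 29231 bp from any region.

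Combined regions leaned to the left of chromosome IV. The chromosome was divided into 3 equal parts of 5.83 Mb, called left part, centre and right part, which only approximate the arms and centre of recombination maps. The left part held 49 regions, 45.8% (36.1 to 55.7), the centre 33, 30.8% (22.3 to 40.5), and the right part 25, 23.4% (15.7 to 32.5). On II, III, V and X together the left part held 28.3% (23.6 to 33.4), with a range of 19.3% on II to 35.0% on X. Uneven filling was not particular to IV: II held 53.0% of its regions in its right part and V 46.4% in its centre. This lean was chosen for description after the values were seen.

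Replicate peaks taken as a whole did not show this lean. All replicate 1 peaks on IV were spread evenly, with 33.4% in the left part, 33.9% in the centre and 32.8% in the right part, and replicate 2 peaks gave 31.4%, 35.2% and 33.4%. Reproduced sites stood at 31.7% (28.8 to 34.6) in the left part, near their background of 30.1%, and at 37.2% (34.3 to 40.3) in the centre. Peaks at the ceiling score were most frequent in the left part, though in replicate 1 the centre held nearly as many. In replicate 1 the left part had 37.9% (31.2 to 45.0), the centre 35.5% and the right part 26.6%. The background left share was 25.9%, from 14.6% on II to 33.8% on X. In replicate 2 the left part had 39.7% (28.5 to 51.9), the centre 31.5% and the right part 28.8%. The background left share was 28.8%, from 17.9% on II to 34.3% on X. Both left intervals on IV include the share of an even split. Of the 46 replicate 1 peaks at the ceiling in both lists, not all of them separate places, 21 lay in the left part, 12 in the centre and 13 in the right part. The left share of these peaks, 45.7% (30.9 to 61.0), was as high as that of the combined regions, and on the background chromosomes it was 30.2% (24.2 to 36.7). Combined regions covered 41 of the 46, so the match with their left share is largely built in.

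**Figure D4:**
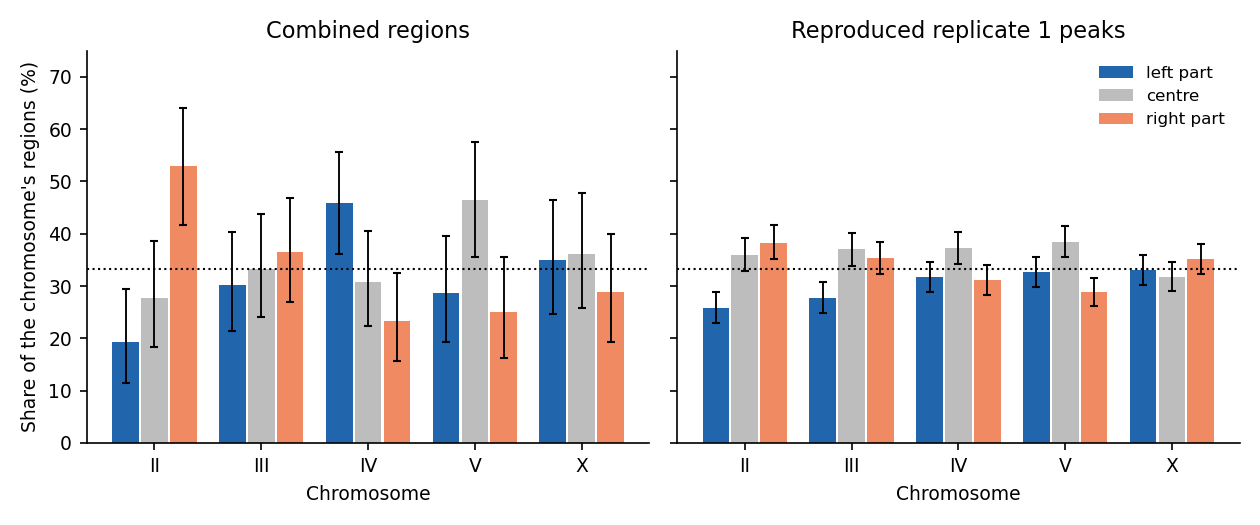
Bars give the share of a chromosome's combined regions (left panel) and reproduced replicate 1 peaks (right panel) in its left part, centre and right part (y axis, %), by chromosome (x axis), with 95% Clopper-Pearson intervals; the dotted line marks equal parts. On IV the left bar is highest for combined regions, at 45.8%, while its reproduced peaks stand between 31.1% and 37.2%.

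The centre of IV was filled mainly by weaker regions. Of its 33 regions, 11 had a q-value of 0.001 or less, 33.3% (18.0 to 51.8), against 29 of 49 in the left part (59.2%) and 16 of 25 in the right part (64.0%). The centres of II, III, V and X gave 58.5% (49.3 to 67.3) together, and 46.2% at the lowest. Median q-values on IV were 3.49e-04 in the left part, 2.04e-03 in the centre and 7.67e-05 in the right part. The 6 regions at or below a q-value of 1e-10 lay in the outer parts, 3 in each. Counting only regions at 0.001 or less, the centre held 19.6% of those on IV and the left part 51.8%. On II, III, V and X together, 72 of 206 such regions lay in the centre and 63 in the left part.

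In windows of 500 kb, none of the 35 on IV was without a combined region. The median was 3 regions and the most was 6. Of the 31, 28, 42 and 36 windows on II, III, V and X, 4, 2, 7 and 1 were empty, and the fullest window held 5 to 9. Windows with 6 or more regions numbered 4, 4, 2 and 0 on these chromosomes, so II and III had as many as IV. Windows with 6 regions on IV numbered 4, and all lay in the left part or across its edge with the centre, at IV:2500001-3000000, IV:3000001-3500000, IV:4000001-4500000 and IV:5500001-6000000. The last of these also had the most reproduced sites of any window on IV, 41, where the median was 30 and the lowest 16.

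Some regions on IV came in close groups. A neighbour within 5 kb, midpoint to midpoint, was found for 26 of 107 regions, 24.3% (16.5 to 33.5), against a background of 17.2% (13.4 to 21.6) with a range from 10.0% on X to 27.1% on III. With a limit of 2 kb the share was 13.1%, and with 10 kb it was again 24.3%. These 26 regions formed 12 groups, 10 of them pairs, and 7 of the 12 groups began in the left part. In 7 places on IV the gap between neighbouring regions was under 1000 bp, against 0 to 5 on the background chromosomes. It was not tested whether such neighbours are parts of 1 bound segment.

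Both groups of 3 lay in the left part and had modest q-values. In the first, IV:3645858-3647991 (2134 bp), gaps of 411 and 438 bp separated 3 regions with q-values from 1.26e-04 to 3.54e-03, and every region overlapped a peak of each replicate. The replicate 1 peaks had numbers 562, 472 and 805, all at the ceiling, and the replicate 2 peaks had 2966, 518 and 1893, all below it. In the second, IV:5591142-5594249 (3108 bp), the region at the left end had q = 1.61e-05 with numbers 663 and 7150. Its middle region, IV:5592979-5593258 (q = 5.60e-03), had number 719 and no replicate 2 peak, and the right one, IV:5593726-5594249 (q = 2.90e-03), had 522 and 343.

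The pairs included the strongest site of the chromosome. The region IV:4024140-4025002 (863 bp, q = 7.62e-07) ended 828 bp before IV:4025831-4026316, and it had numbers 498 and 4617, where the strong site had 9 and 10. The pair IV:15471419-15471760 and IV:15472400-15472707 was the only one with both members among the 20 lowest q-values, 639 bp apart. IV:5655958-5656321 and IV:5657120-5657462 were 798 bp apart and contrasted in their replicates: numbers 19 and 2098 at the first, 527 and 195 at the second.

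**Figure D5:**
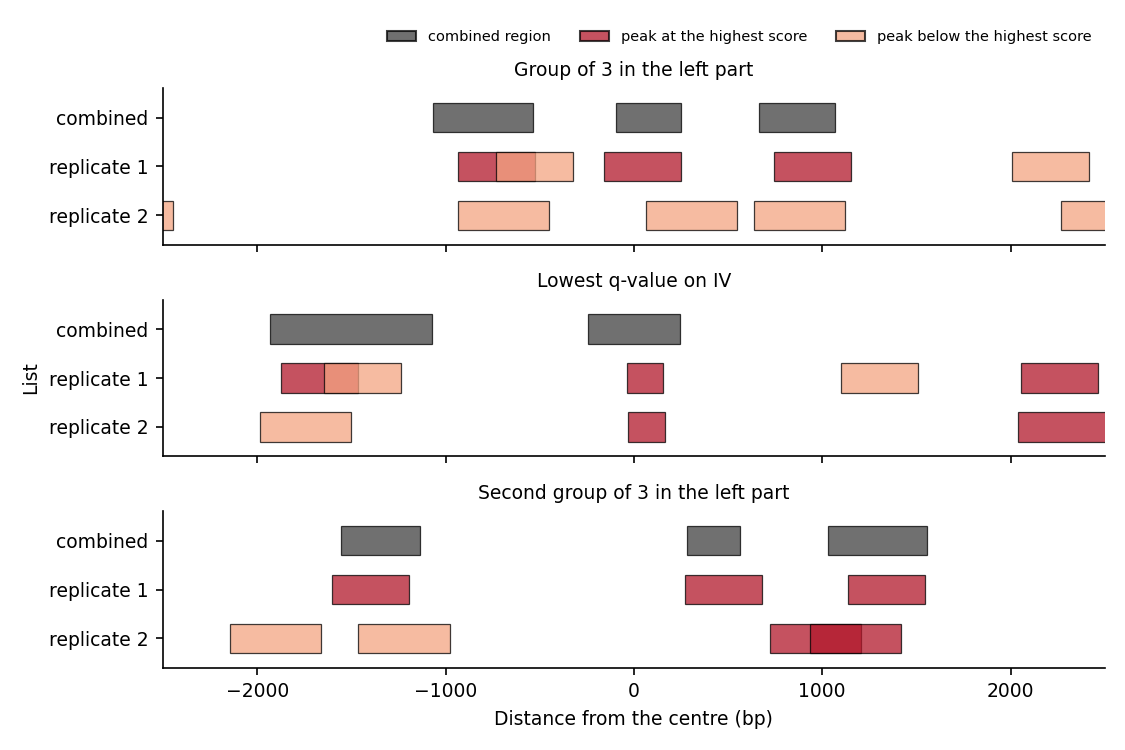
Boxes show combined regions and the peaks of each replicate to scale, by distance in bp from the centre of the place shown (x axis), for both groups of 3 regions and for the region with the lowest q-value on IV; rows are the 3 lists. At the strongest site the narrow peaks of the replicates coincide, 9.5 bp apart by midpoint, and a ceiling-score pair to the right has no combined region.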

How the data were processed

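ChIP replicates 1 and 2 were represented by the peak lists deposited for them, and 1 combined list was deposited for the series. Per the file headers and source columns, the replicate lists came from SPP run through the IDR procedure, with a score per peak whose scale is not stated, and the combined list came from PeakSeq, with a q-value per region, all in WormBase WS220. The authors deposited these scores and q-values; for the aligner, versions, pooling, controls and depth, nothing is stated in the labels or headers.

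The rows on IV, II, III, V and X were compared by overlap of at least 1 bp in Python 3.11.15 with NumPy 2.4.6, SciPy 1.17.1 and pandas 2.3.3. Chromosome length was taken as the largest end of any peak on it. Shares carry exact 95% Clopper-Pearson intervals, and no test was run. Overlap and grouping functions were tested on simulated data. Regions were named by rule: the 20 lowest q-values on IV, groups of 3 or more, regions of 1500 bp or more, regions without a replicate peak, the fullest 500 kb windows (4 were tied for the planned 3), and 5 shared ceiling-score sites without a region. Other regions and pairs were named after their values were seen. The members, lists and comparisons were chosen with earlier results of these data known. Genes were not assigned, and planned gene lists were not used, because no WS220 annotation was at hand. Labels do not say whether replicates were separate cultures, so differences between them may be technical.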

Additional observations from a re-analysis of the deposited data

How the results depend on the processing

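Of 38 alternatives, 21 stayed within the 95% interval of the reported value. Reproduced replicate 1 peaks on IV moved from 24.7% to 14.8% with a reciprocal overlap of at least 50%, 14.6% with midpoints within 200 bp, 18.3% in the stronger 50% of each list, and 30.2% when replicate 2 peaks were counted. Combined regions with both replicate peaks moved from 86.9% to 70.1% with the reciprocal overlap, and requiring 1 replicate only gave 86.9% to 97.2%. The share of IV in the list moved from 22.6% to 14.9% to 16.7% when ceiling-score peaks of a single replicate replaced it. The central share moved from 30.8% to 19.6% at q-values of 0.001 or less and to 48.6% for the central 50% of the length. Neighbours fell from 24.3% to 13.1% at 2 kb. Reproduced sites in the centre moved from 37.2% to 26.1% at the ceiling score in both lists and to 54.6% for the central 50%. Coverage of shared ceiling-score sites moved from 89.1% to between 63.0% and 72.1% when the ceiling was required in 1 replicate only. The median width was 393 bp at q-values of 0.001 or less. The left share moved from 45.8% to 61.7% for the left 50% of the length and was 43.0% to 51.8% under the 5 other alternatives, which, like those for the share at low q-values, were chosen after seeing the data. Wider parts and limits hold more or fewer regions by construction. Taking the stronger 50% of each list also leaves fewer replicate 2 peaks to overlap, so 18.3% is not comparable with 24.7%. For the other moves the cause was not tested. No paired analysis was possible because no input values were used, so the ChIP lists have no partner. Depth is unknown.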

Other observations

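The order of the regions on IV was shared in part between the lists. Over the 104 regions with a replicate 1 peak, Spearman's rho between the q-value and the lowest peak number was 0.68, where II, III, V and X gave 0.40 to 0.62. Over the 93 with a replicate 2 peak it was 0.55, against 0.47 to 0.56. Between the numbers of both replicates it was 0.43 over 93 regions, against 0.18 to 0.41. These are correlations across regions of lists whose shared reads are not stated, and they are given as descriptions.

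The regions of IV also stood farther down the replicate lists. The median of the lowest peak number under a region was 456 in replicate 1 and 657 in replicate 2. On the background chromosomes these medians ran from 232 to 373 and from 218 to 529.

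The longest stretch of IV without a combined region ran from IV:15646889 to IV:16492263 in the right part, 0.846 Mb between midpoints. It held 205 replicate 1 peaks, of which 44 were reproduced. The longest stretches on II, III, V and X measured 0.76 to 1.17 Mb.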
